A study of Homo sapiens with 6 samples.

Results

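The clustered protocadherin genes lie side by side on chromosome 5 in 3 groups, alpha, beta and gamma, and the m6A peaks listed over them in HEK293T cells were taken by position. A peak was a member if it was on the plus strand and its centre fell, on the hg19 build, in chr5:140165000-140392000 (alpha, 227 kb), chr5:140430000-140628000 (beta, 198 kb) or chr5:140710000-140893000 (gamma, 183 kb). The members were 17 of 61147 peaks over 3 lists. They formed 9 of the 25737 regions that remain when peaks sharing at least 1 bp on the same strand are merged over the lists. All 9 regions lay in the gamma window.

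The peaks come from methylated RNA immunoprecipitation sequencing (MeRIP-seq), in which an antibody enriches RNA fragments that carry N6-methyladenosine (m6A), and these fragments (IP) are sequenced next to RNA that was not enriched, the input. Wild-type HEK293T cells, an established human embryonic kidney line that expresses the SV40 large T antigen, were used with no treatment, and the experiment was run 3 times, giving 3 IP libraries and 3 input libraries of 150 bp paired reads. The authors deposited 1 peak list for each run (MeRIP 1, MeRIP 2 and MeRIP 3), and the labels do not say whether the runs used separate cultures, so a spread between lists may be technical. Peak lists hold no expression values, so the cell type was not checked against marker genes and read depth is unknown.

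Clustered protocadherins are cell adhesion proteins best known from neurons, where each cell shows a different mixture of them and like molecules bind like molecules on the next cell. An alpha or gamma messenger RNA begins with 1 large variable first exon, which has a promoter of its own and encodes the extracellular part, the membrane span and the start of the tail, and is spliced to a short set of constant exons shared by the whole group. Beta genes have no such shared exons. Methylation of adenosine in messenger RNA is carried out mostly by METTL3 with METTL14 and is known to be frequent in long exons and near stop codons. This gene layout shows in the RefSeq table of GRCh38.p14, used here for names and order only: all 15 protein-coding alpha genes shared a single downstream end, as did all 22 gamma genes, while the 16 beta genes had 16 different ends. The gamma genes run from PCDHGA1 to PCDHGC5 and comprise 12 of type A, 7 of type B and 3 of type C, with a C-type gene last. No hg19 annotation or genome was used, so regions are given by position, are not assigned to single genes, and are shown without their sequence. The constant exons were represented by the downstream end of each window, the last 37 kb of alpha and the last 21 kb of gamma, and the rest was taken as the variable stretch. These lengths follow the known layout of the genes and not an annotation of this build.

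The first comparison was between the 3 groups of genes. The gamma window held 7 peaks in MeRIP 1, 4 in MeRIP 2 and 6 in MeRIP 3, or 5.67 ± 1.53 peaks (SD, n = 3 lists). The alpha and beta windows held 0 listed peaks in every list, on the plus strand and on the minus strand alike, and the gamma window had 0 on the minus strand. Gamma was thus above alpha and beta in 3 of 3 lists, which is a count and was not tested. Per 100 kb, gamma had 3.83, 2.19 and 3.28 peaks in MeRIP 1, MeRIP 2 and MeRIP 3.

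An empty stretch of this length was common, and a stretch as full as gamma was not. When the plus strand of chromosome 5 was cut into consecutive pieces as long as each window, 606 of 795 pieces of 227 kb (76.2%) and 717 of 912 pieces of 198 kb (78.6%) held no region. Of 986 pieces of 183 kb, 6 (0.609%) held 9 or more regions. Over all chromosomes and both strands the share with 9 or more was 1.47% of 32317 pieces. These shares describe the lists, since genes are not spread evenly over pieces.

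Peaks nearest to the windows but outside them show where the group was bounded. The closest plus-strand peak upstream of alpha ended 78.9 kb from it in MeRIP 1, 78.8 kb in MeRIP 2 and 78.9 kb in MeRIP 3, and the closest plus-strand peak downstream of gamma began 410.4 kb from it in each list. On the minus strand, a peak with a score of 3100 lay between beta and gamma at chr5:140698057-140700351 in all 3 lists, with the same edges. Another minus-strand peak began 1.58 to 1.59 kb downstream of gamma, and scored 756, 375 and 162 in MeRIP 1, MeRIP 2 and MeRIP 3.

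**Figure D1:**
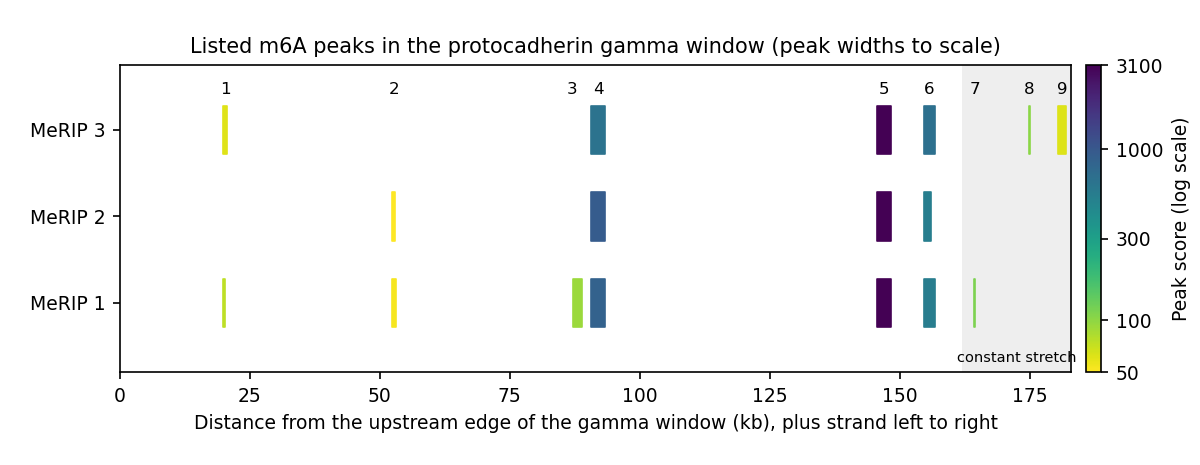
Position of every listed peak in the gamma window, by list (rows), in kb from the upstream edge of the window; bar widths are to scale, apart from a thin outline that makes the narrowest bars look wider, and colour gives the peak score on a log scale, with scores above 3100 drawn as 3100. Numbers 1 to 9 name the regions from upstream to downstream, and the grey area is the constant stretch; regions 4, 5 and 6 have a bar in all 3 rows.

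The regions, numbered from upstream to downstream, fell into a recurrent set inside the variable stretch and weak regions on either side of that set. The weak regions upstream of the recurrent set also lay in the variable stretch. Every list had a peak in 3 of the 9 regions, a pair of lists had one in 2 regions, and a single list in the other 4. The share in all 3 lists was 33.3% (95% Wilson interval 12.1 to 64.6%, counting error only), against 59.3% of all regions of the series and 58.9% of those on the plus strand, which lie within that interval. The split followed the score, which is the authors' own value per peak, runs from 50 to slightly above 3100 and looks like a p-value on a −log10 scale times a constant, so that its ratios are not folds of methylation. Many peaks share a score of 3100, and scores at or above it were treated here as 1 ceiling. All 3 regions with a highest score of 500 or more were in every list (background 88.6%), and 0 of 6 regions with a highest score under 200 were (background 19.0%, Wilson interval for the members 0 to 39.0%). Regions of the series thus also recurred more often at high scores, and no cluster region had a highest score between these limits. The limits were chosen after the values were seen. A highest score is also taken over the lists that hold the region, so it can rise with their number. The split at these limits is therefore a description and not a test.

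Region 5, at chr5:140855569-140858307, was the strongest. Its score was 3100 in MeRIP 1, 3181 in MeRIP 2 and 3100 in MeRIP 3, so it was at or above the limit of 3100 in every list, as were 18.8% of the regions of the series with 1 peak in each list. In width it measured 2735, 2704 and 2739 bp, or 2726 ± 19.2 bp (SD, n = 3 lists). It began 146 kb into the gamma window and ended 34.7 kb before its downstream edge.

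Region 4, at chr5:140800537-140803399, came next by score. The values were 857 in MeRIP 1, 945 in MeRIP 2 and 639.6 in MeRIP 3, which placed the peak at the 63.0, 65.3 and 57.0 percentile of all scores of its list. Among the 3 recurrent regions it had the widest spread of scores, with the highest 1.48 times the lowest (a log2 range of 0.56). Across 12237 regions of the series with 1 peak in each list and not at the ceiling throughout, the median log2 range was 0.92, so the lists differed less here than at the median region. At 2725, 2837 and 2823 bp its peaks were also the widest of the group, apart from MeRIP 1, where region 5 was 2735 bp.

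Region 6, at chr5:140864741-140866758, lay 6.43 kb downstream of region 5 and was the last region before the constant stretch. The scores were 550.0 in MeRIP 1, 539 in MeRIP 2 and 688 in MeRIP 3, a log2 range of 0.35, at the 55.2, 55.0 and 58.3 percentile of their lists. Its width was 2000 bp in MeRIP 1, 1313 bp in MeRIP 2 and 2018 bp in MeRIP 3. The score of MeRIP 2 was close to that of MeRIP 1 although its peak was shorter. In each list regions 4 and 6 were both below region 5, but their own order changed: region 6 was above region 4 in MeRIP 3 and below it in MeRIP 1 and MeRIP 2.

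**Figure D2:**
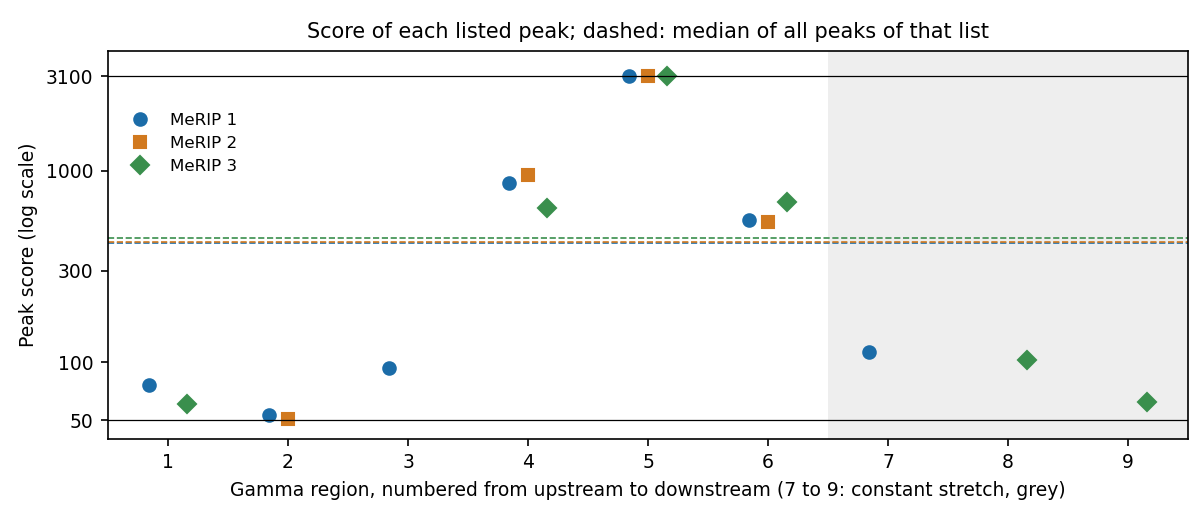
Score of each listed peak (log scale) by region, with 1 symbol per list; scores above 3100 are drawn at 3100, black lines mark 50 and 3100, and dashed lines mark the median of all peaks of each list. Regions 4, 5 and 6 lie above the medians of 419.9, 422 and 443 in every list, and all other regions lie below them.

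The 3 regions upstream of these were weak. Region 1, at chr5:140729828-140730619, had a score of 75.8 in MeRIP 1 and 60.9 in MeRIP 3 and was not listed in MeRIP 2. Region 2, at chr5:140762306-140763127, had 53.2 in MeRIP 1 and 50.7 in MeRIP 2, both close to the lowest score of 50 that the lists hold, and was not listed in MeRIP 3. Region 3, at chr5:140797214-140798975, was listed in MeRIP 1 alone, with a score of 92.9. It was 1762 bp wide and ended 1.56 kb upstream of region 4. Among them, then, no pair of regions had the same lists.

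The next comparison was between the variable stretch and the constant stretch. In alpha neither stretch held a listed peak, so the comparison rests on gamma. The variable stretch of gamma held 6 regions: 3 recurred in all 3 lists, 2 appeared in a pair of lists and 1 in MeRIP 1 alone. The constant stretch, 21 of the 183 kb of the window, held 3 regions, each in 1 list only, so 0 of 3 recurred. All 3 had a highest score under 200. Of all regions of the series with such a score, 19.0% were in all 3 lists. The regions of the variable stretch with a highest score under 200 were not in all 3 lists either. A difference in recurrence between the stretches was therefore not separated from score.

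In the constant stretch, region 7, at chr5:140874374-140874415, was 42 bp wide, with a score of 113 in MeRIP 1. Region 8, at chr5:140884960-140885048, was 89 bp wide, with a score of 102 in MeRIP 3. Region 9, at chr5:140890514-140892002, was 1489 bp wide and ended 0.998 kb before the downstream edge of the window, with a score of 62.0 in MeRIP 3. MeRIP 2 listed 0 peaks in the stretch. Regions 7 and 8 were the shortest of the group, at the 0.366 and 4.47 percentile of the widths of their lists, where 6.77% of MeRIP 1 peaks and 6.27% of MeRIP 3 peaks measured at most 100 bp (6.16% in MeRIP 2).

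Scores were higher in the variable stretch by the median in both lists that had peaks in each stretch. Here and below, medians were taken on the log2 scale and are printed as scores or bp, so a median of an even number of peaks is the geometric mean of the middle pair. The median was 226 over 6 peaks against 113 for 1 peak in MeRIP 1, and 663 over 4 peaks against 79.7 over 2 peaks in MeRIP 3, a difference of 2.03 ± 1.45 on the log2 scale of the score (SD, n = 2 lists; two-sided exact sign-flip permutation test, p = 0.5, the smallest that 2 lists can give). The stretches overlapped in both lists, however: region 7 was above regions 1, 2 and 3 in MeRIP 1, and regions 8 and 9 were above region 1 in MeRIP 3. Widths had medians of 1877 against 42.0 bp in MeRIP 1 and 2351 against 364 bp in MeRIP 3, a log2 difference of 5.48 and 2.69 (two-sided exact sign-flip permutation test, p = 0.5). The 42.0 bp is 1 peak, and the 364 bp stands for a peak of 89 bp and a peak of 1489 bp. Widths overlapped in MeRIP 3, where region 9, at 1489 bp, was wider than region 1 of the variable stretch, at 792 bp. Summed over peaks, the variable stretch had 10413, 7354 and 8372 bp under peaks in MeRIP 1, MeRIP 2 and MeRIP 3, and the constant stretch had 42, 0 and 1578 bp. The constant stretch is only 21 of the 183 kb of the gamma window. These sums are therefore not densities, and a lower sum alone does not mean less coverage per kb. Per kb, the constant stretch had less under peaks than the variable stretch in MeRIP 1 and MeRIP 2. In MeRIP 3 it had more, with 1489 of its 1578 bp in region 9. This order was not tested.

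Peaks over the gamma genes were wide for this series. The median width was 1762 bp for the 7 member peaks of MeRIP 1 against 414 bp for all its other peaks, 1884 against 441 bp in MeRIP 2 and 1733 against 433 bp in MeRIP 3. On the log2 scale the medians differed by 2.06 ± 0.05 (SD, n = 3 lists), with members wider in 3 of 3 lists (two-sided exact sign-flip permutation test over lists, p = 0.25, the smallest that 3 lists can give). Of the member peaks, 4 of 7, 3 of 4 and 4 of 6 were over 1000 bp wide, against 24.6%, 25.9% and 25.9% of all peaks in MeRIP 1, MeRIP 2 and MeRIP 3. Regions 4, 5 and 6 were over 1000 bp in every list. The counts and the small SD thus rest largely on the same regions listed again.

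Their scores did not differ from the rest in 1 direction. The member median was 113 against 419.9 for other peaks in MeRIP 1, 714 against 422 in MeRIP 2 and 256 against 443 in MeRIP 3. It was lower in 2 of 3 lists, with a difference of -0.64 ± 1.33 on the log2 scale of the score (SD, n = 3 lists; two-sided exact sign-flip permutation test, p = 0.5). MeRIP 2 had the highest median and also the fewest weak members, since it lacked 5 of the 6 weak regions. Wide and weak peaks occurred in the group: region 3 in MeRIP 1 and region 9 in MeRIP 3 were over 1000 bp with a score under 100, which makes 2 of the 11 member peaks over 1000 bp. Such scores were found in 5.99% of peaks over 1000 bp in MeRIP 1, 5.90% in MeRIP 2 and 5.87% in MeRIP 3.

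**Figure D3:**
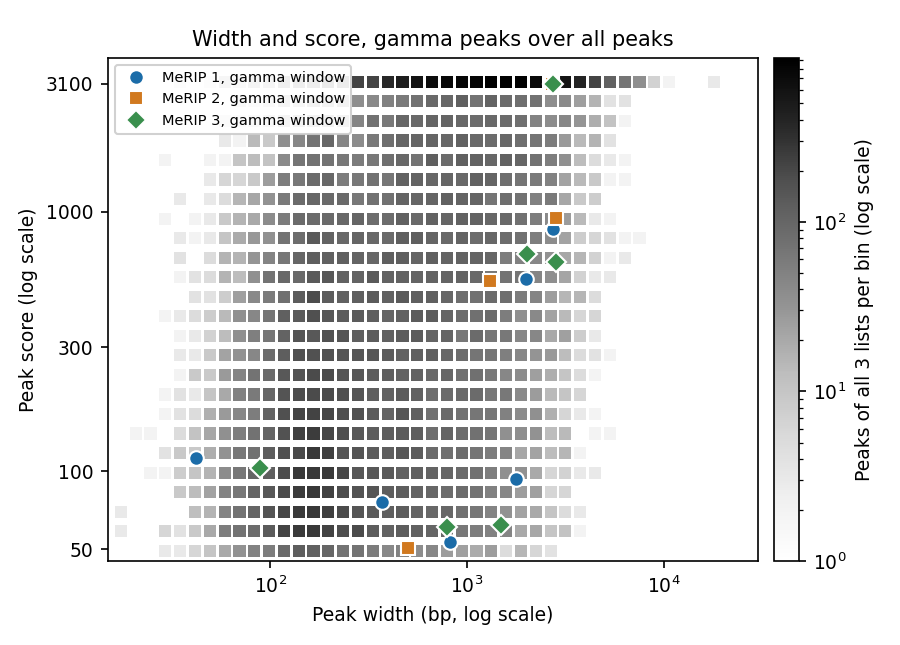
Width and score (both log scale) of the member peaks, coloured by list, over all peaks of the 3 lists, shown as grey squares whose shade gives the number of peaks per bin; the ceiling peaks of the 3 lists lie on top of one another. Peaks of regions 4, 5 and 6 are to the right, at 1313 to 2837 bp, and weak member peaks run from 42 to 1762 bp.

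Edges of the recurrent regions were then compared between lists. None of the 3 had identical edges in all lists (0 of 3, 95% Wilson interval 0 to 56.1%), against 72.7% of all regions with 1 peak in each list and 43.4% of those with a median width over 1000 bp. The 43.4% lies within that interval, so the members were not told apart from regions of that width. Regions 5 and 6 shared their upstream edge to the base in all 3 lists and differed downstream, as did 46.9% of the regions of that width. In region 5 the downstream edges lay within 35 bp, and 98.7% of the region was covered by all 3 peaks. Those of region 6 lay 705 bp apart, because the peak of MeRIP 2 ended early, and 65.1% of the region was covered by all 3. In region 4 the upstream edges spread over 40 bp and the downstream edges over 138 bp, where MeRIP 2 and MeRIP 3 ended on the same base. Region 1 also kept its upstream edge in both of its lists, with downstream edges 423 bp apart, whereas in region 2 the 500 bp peak of MeRIP 2 lay inside the 822 bp peak of MeRIP 1.

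**Figure D4:**
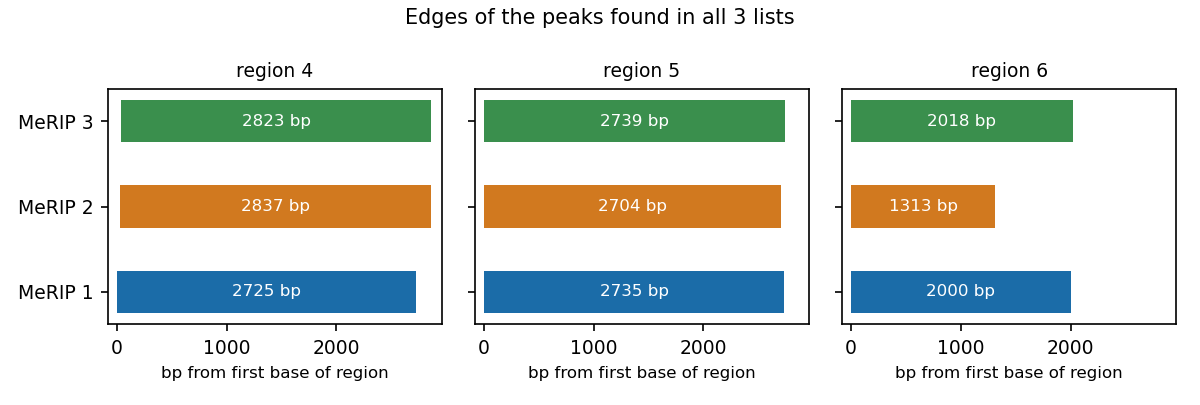
Extent of the peaks of regions 4, 5 and 6 in each list, in bp from the first base of the region, with the width printed in each bar. In regions 5 and 6 the bars begin at the same base, and in region 6 the MeRIP 2 bar is 1313 bp long against 2000 and 2018 bp.

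Names of the peaks carry a running number, so numbers missing from a list can be counted. Over 61075 pairs of consecutive peaks on a chromosome the number never fell, so it follows position. Between the last listed peak before alpha and the first after beta, a span of 612 kb that holds both windows, 9 numbers were passed in MeRIP 1, 15 in MeRIP 2 and 9 in MeRIP 3, and 0 of those numbers were listed. The span around gamma, of 194 kb between listed minus-strand peaks, passed 37, 27 and 33 numbers, of which 7, 4 and 6 were listed. That is 18.9%, 14.8% and 18.2%, against 22.0%, 26.6% and 26.7% in the whole lists. Along chromosome 5 the listed shares were 19.0%, 23.1% and 23.7%, so gamma was close to its chromosome in MeRIP 1.

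Numbers were dense over gamma: 19.0, 13.9 and 17.0 per 100 kb, against 1.47, 2.45 and 1.47 over alpha and beta and 2.45, 1.80 and 1.82 along chromosome 5. Gamma was above the other span in 3 of 3 lists. A number does not tell strand, score or whether the peak lay in an exon, and it may belong to the ends of a span outside the windows. Between region 6 and the minus-strand peak downstream, which takes in the constant stretch, MeRIP 2 passed 5 numbers without a listed peak. Between regions 5 and 6 no number was passed in any list. A missing peak therefore cannot be read as unmethylated RNA, and neither the level of each RNA nor the rule that kept a peak in a list was tested as a source of the pattern.

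**Figure D5:**
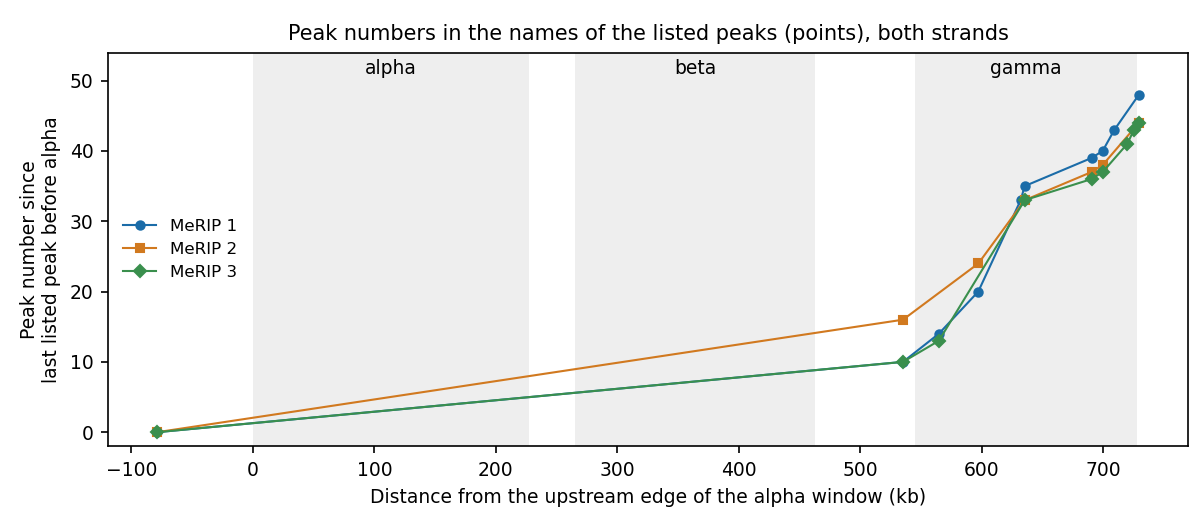
Running number of the listed peaks (points, both strands) counted from the last listed peak before alpha, against distance in kb from the upstream edge of the alpha window; grey areas are the alpha, beta and gamma windows and lines join the points of a list. The lines rise by 10, 16 and 10 from the first point to the second in MeRIP 1, MeRIP 2 and MeRIP 3 and by 38, 28 and 34 from there to the last.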

How the data were processed

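Reads were handled with cutadapt (1.9.3) and with HISAT2 (2.0.4) on hg19, per the submitters' processing notes. Peak names carry the word MACS, with the caller's version not given in the sources used here. For each run the authors deposited 1 list of peaks, IP against input, holding position, strand and score. The score is a deposited value whose scale no header states. Scores above 3100 were set to 3100 before log2. Starts were counted from 1. Peaks were merged at 1 bp overlap on the same strand, and medians within lists were compared by exact sign-flip tests over lists. Consecutive pieces ran from the first to the last region of a strand. The code ran on Python 3.11.15 with SciPy 1.17.1, NumPy 2.4.6, Matplotlib 3.10.9 and pandas 2.3.3, and was tested on simulated lists. Named in full were constant-stretch regions, the 3 widest recurrent regions, regions of 1 list and that with the widest score spread, and every other member is given too. Members, windows and rules were chosen with earlier results of these data known. The score limits of 100, 200 and 500, the 1000 bp limit for wide peaks, the pieces and the use of peak numbers were chosen after values were seen. Read depth is unknown, and intervals cover counting error only. Alternatives were other score, width, overlap and stretch limits and leaving out each run. The planned list of other protocadherins and CTCF-related genes could not be placed without an hg19 annotation.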

Additional observations from a re-analysis of the deposited data

How the results depend on the processing

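No paired analysis was possible because IP and input of a run are combined in 1 peak list, with no value for either library alone. The share of regions in all 3 lists, 33.3% or 3 of 9, was 100% (3 of 3) when only the peaks from the list's median score upward were kept and 0% (0 of 4) with peaks of at most 1000 bp. The first setting leaves out the 6 regions with a highest score under 200, and the second leaves out regions 4, 5 and 6, whose peaks are 1313 to 2837 bp wide, and the wide regions 3 and 9. It was 42.9% to 57.1% in both remaining lists when 1 run was left out. With a 50% reciprocal overlap, 9 of 17 peaks had a partner in both other lists, as with 1 bp. No share over the whole series is given for these settings, so the values describe the members and are not compared with other regions. The score difference between member and other peaks was -1.34 without MeRIP 2 and -0.57 without MeRIP 3. Without MeRIP 1 it was -0.02, close to no difference, and the remaining lists differed in sign. The width difference was 1.95 to 2.09 under all alternatives run. Variable stretch against constant stretch differed in score by 1.0 without MeRIP 3 and by 3.06 without MeRIP 1, where 1 list remains and no test can be made. In width it differed by 5.48 and 2.69 in the same settings. With the constant stretch set to the last 10 kb, MeRIP 3 alone has peaks in both stretches, at 3.06 for score and 2.69 for width. No alternative gave identical edges in any recurrent region, a tolerance of 10 bp included. Without read depth, a region absent from a list may lie just below its lowest score.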
